A study of Homo sapiens with 4 samples.

Results

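HIF1A and 9 genes that are widely used as readouts of the hypoxia response (VEGFA, CA9, SLC2A1, ADM, PDK1, NDRG1, BNIP3, EGLN3 and ANKRD37) were followed in SUM149 cells, a line derived from an inflammatory breast cancer. Every probe annotated with 1 of these 10 gene symbols was taken, which gave 12 probes, with 2 for HIF1A, 2 for VEGFA and 1 for each of the other genes, out of 58201 probes and 34755 genes on the array. The groups were untreated SUM149 cells and SUM149 cells after 3, 6 and 12 h with 2.5 uM ACY1215 (Ricolinostat), an inhibitor of the deacetylase HDAC6, with 1 two-colour Agilent array per group. Sample RNA was read in the Cy5 channel, and Cy3 carried the same reference RNA on each array, described by the labels as pooled from the untreated and treated cells. Arrays of vehicle-treated cells at these times were not analysed here, so the compound and the time in culture cannot be told apart, and all cells were of 1 line. The changes at 3, 6 and 12 h share the 1 untreated array. In RNA from whole cultures, a smaller number of cells that express a gene and less of its RNA per cell cannot be told apart.

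The genes were selected on the change of their log2 ratio of Cy5 over Cy3 at 3, 6 and 12 h from untreated as well as on their role in hypoxia, so these values are given as a description, without a test. The question was whether the targets followed the rise of HIF1A RNA. They did so in part, and less at 6 h than at 12 h. Above the untreated array were 7 of the 9 targets at 3 h, 6 at 6 h and 8 at 12 h. Of all genes 51.4%, 52.8% and 52.5% were. Above the median of all genes were 5 targets at 6 h and 8 at 12 h by the ratio. In Cy5 alone (defined below) there were 4 and 6. At 12 h 7 targets were above the untreated array by more than the technical SD defined below, against 36.6% of all genes. These include EGLN3, which was near background. None reached 2-fold, where 2.34% of all genes were higher and 1.12% lower by that much. VEGFA lay below the untreated array by its main probe. In Cy5 alone, as defined below, CA9 and SLC2A1 were 0.04 lower each. That is within the technical SD and near the median of all genes in that setting, −0.03. HIF1A itself was 1.64-fold higher at 12 h by one probe and 3.48-fold higher by the other.

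HIF1A encodes the α subunit of hypoxia-inducible factor 1. With oxygen present, prolyl hydroxylases of the EGLN family modify the protein, the VHL ubiquitin ligase then binds it, and the proteasome degrades it; without oxygen it accumulates, joins ARNT and switches on genes for glucose uptake, glycolysis, blood vessel growth and mitochondrial turnover. Regulation is thus mainly at the level of the protein, which the arrays did not measure. The HIF dimer binds a short DNA core, ACGTG or GCGTG, in promoters and enhancers.

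To show where such cores lie in the targets, the 250 bases before each annotated start were searched on both strands for ACGTG and GCGTG (read as CACGT and CACGC on the other strand) in RefSeq promoters of build GRCh38.p14. Of the 9 targets, 7 had an entry in the promoter table, and 5 of these held at least 1 core at any start; 47.4% of the 27305 genes in the table did, and 43.2% of its 35116 promoters. PDK1 has 2 starts in the table, with a core at 1 of them. No such letters were found in that window for SLC2A1 and EGLN3. The stretch around the cores is printed for the 5 genes, on the strand of the gene, 5′ to 3′, with the cores in capitals; the sequence CACGTG, a motif of other factors as well, holds a core on both strands.
CA9 (chr9:35673895-35673927, plus strand): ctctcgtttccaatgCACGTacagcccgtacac
ADM (chr11:10304957-10304991, plus strand): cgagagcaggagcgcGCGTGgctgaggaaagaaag
PDK1 (chr2:172556058-172556089, plus strand): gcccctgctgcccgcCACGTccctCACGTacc
BNIP3 (chr10:131982008-131982081, minus strand): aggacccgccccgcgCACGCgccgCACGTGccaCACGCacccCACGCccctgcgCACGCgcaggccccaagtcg
ANKRD37 (chr4:185396664-185396717, plus strand): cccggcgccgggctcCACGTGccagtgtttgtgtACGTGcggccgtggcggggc
BNIP3 held 6 core matches, ANKRD37 held 3 and PDK1 held 2, counting both strands, and CA9 and ADM held 1 each. The nearest core lay 8 bases before the start in PDK1, 18 in CA9, 101 in ADM, 104 in BNIP3 and 143 in ANKRD37. A match of 5 letters is a description of the sequence and not a measured binding site.

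All 12 probes were well above background in both channels on all 4 arrays. The median Cy5 signal over all spots of an array lay between 36.0 and 40.0 scanner units over a local background of 24.0. A technical SD was taken as the median SD of the log2 change between repeated spots over 130 probes spotted at least 9 times. It was 0.11 at 3 h, 0.11 at 6 h and 0.10 at 12 h, and it covers the array and not the culture or the RNA extract. Some probes spread more: the 95th percentile of the SD was 0.35 at 3 h, 0.18 at 6 h and 0.17 at 12 h. Of the 9 targets by main probes, VEGFA, ADM and ANKRD37 alone changed by more than that value at 3 h. Areas of the slide called damaged, from Cy3 and the flags for outlier spots, held 3.33% of spots on the untreated array, 4.72% at 3 h, 0.186% at 6 h and 0.00821% at 12 h. Of 8 epithelial markers of the line, 7 were well above background in Cy5 on all 4 arrays, and the eighth, KRT14, was so on 3 and had a flagged spot on the other. Of 8 markers of other cell types 7 were also above background on all 4 arrays, with Cy5 signals of at most 476 units, while COL3A1 was on none. Of the hormone receptors PGR was on none, but ESR1 was above background on all 4, with 172 to 262 units. The ratio of NDRG1 was below −1 on all 4 arrays, and that of HIF1A was above 0 on all 4, although the reference is labelled as a pool of these same samples. The level of a ratio was therefore not read. Changes between arrays are given, in which the reference drops out as far as its signal is equal on the arrays. Where it was not, Cy5 alone is given too. Cy5 alone and Cy3 alone were computed from the ratio and the mean log2 signal of both channels after normalization, so both depend on both channels. They can differ in direction from the Cy5 signal in units, which is before normalization, as they did for ADM, PDK1 and BNIP3 at 12 h. HDAC6 RNA was 0.41 lower at 3 h, 0.25 lower at 6 h and 0.51 lower at 12 h on the log2 scale by its main probe, and its other probe gave −0.25, −0.0049 and −0.20; the RNA is no measure of the inhibition of the enzyme.

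The probe A_24_P56388, 1 of the 2 for HIF1A, was printed in 10 spots on every array and had the higher Cy3 signal, so it represented the gene. Its median Cy5 signal before normalization was 4160 units in untreated cells, 5021 at 3 h, 4384.5 at 6 h and 4419.5 at 12 h. After normalization its log2 ratio of Cy5 over Cy3 was 0.84 in untreated cells, 1.19 at 3 h, 1.35 at 6 h and 1.55 at 12 h. The ratio was thus higher at each later time. Over the 10 spots it ran from 0.69 to 1.11 in untreated cells, from 1.08 to 1.42 at 3 h, from 1.28 to 1.46 at 6 h and from 1.49 to 1.68 at 12 h. The spots of neighbouring time points overlapped from untreated to 3 h and from 3 h to 6 h, but those at 12 h lay above all others. The log2 change from untreated was 0.36 ± 0.12 at 3 h, 0.52 ± 0.13 at 6 h and 0.72 ± 0.13 at 12 h (SD between 10 spots of 1 array pair). These are 1.28-fold, 1.43-fold and 1.64-fold, so this probe did not reach 2-fold at any time.

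Part of this change lay in the reference channel. In Cy5 alone the probe was 0.15 higher at 3 h, 0.30 higher at 6 h and 0.48 higher at 12 h on the log2 scale. In Cy3, which should be equal between arrays, it was 0.20 lower at 3 h, 0.22 lower at 6 h and 0.24 lower at 12 h. The direction in Cy5 was therefore that of the ratio, with a smaller size. With each array centred on its median in place of loess, the change was 0.46 at 3 h, 0.32 at 6 h and 0.36 at 12 h, where the median over all genes was itself 0.08, −0.08 and −0.16. Relative to that median HIF1A was 0.39, 0.40 and 0.52 higher.

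The other HIF1A probe, A_33_P3231277, is annotated to the same RefSeq transcript and was printed in 1 spot per array. Its Cy5 signal was 704 units in untreated cells, 2279 at 3 h, 2152 at 6 h and 2018 at 12 h. Its log2 ratio was 0.40 in untreated cells, 1.85 at 3 h, 2.22 at 6 h and 2.20 at 12 h. The untreated array stood alone at the low end, and the 6 h and 12 h values differed by less than the technical SD. HIF1A rose by 1.44, 1.81 and 1.80 on the log2 scale by this probe, which is 2.72-fold, 3.51-fold and 3.48-fold. The Cy3 signal of this spot moved little, by 0.01, −0.15 and −0.10, and Cy5 alone gave 1.45, 1.67 and 1.70.

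Both HIF1A probes thus gave a higher value at every time, with different sizes and different courses. By A_24_P56388 the change grew from 3 h to 12 h, whereas by A_33_P3231277 most of it was present at 3 h. The difference between them was 1.09 at 3 h, 1.30 at 6 h and 1.08 at 12 h. Among the 5136 genes with at least 2 measured probes at 12 h, the 2 brightest probes differed by a median of 0.20, and in 1.6% of these genes by at least as much as in HIF1A; the share was 1.68% at 3 h and 1.0% at 6 h. The sequences of the probes were not used here, so which part of the transcript each one reads was not compared.

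**Figure D1:**
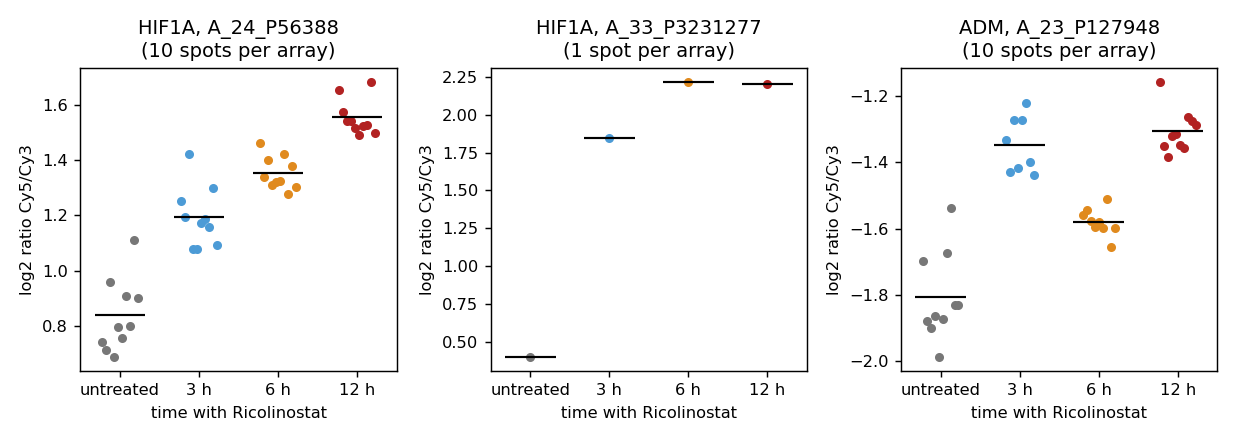
Log2 ratio of Cy5 over Cy3 (vertical axis) of every unflagged spot of 3 probes on the array of untreated SUM149 cells and the arrays after 3, 6 and 12 h with Ricolinostat (horizontal axis); the bar is the mean over spots. The 10 spots of HIF1A probe A_24_P56388 climb from a mean of 0.84 to 1.55, the 1 spot of A_33_P3231277 jumps from 0.40 to 1.85 at 3 h, and the ADM spots lie higher at 3 h and 12 h than at 6 h. The vertical axes differ between panels.

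VEGFA and ADM are the secreted ligands among the targets. VEGFA, the growth factor that drives sprouting of blood vessels, had 2 probes that did not move together. By its main probe, A_23_P70398, the Cy5 signal was 602 units in untreated cells, 556 at 3 h, 372.5 at 6 h and 393 at 12 h. The log2 ratio was −1.03 in untreated cells, −1.45 at 3 h, −1.72 at 6 h and −1.64 at 12 h. All 3 treated arrays lay below the untreated one, by 0.41, 0.69 and 0.61, which was beyond the technical SD but short of 2-fold. By the other probe, A_24_P12401, the Cy5 signal was 682, 696, 530 and 504.5 units in the same order. The log2 ratio was then −0.73, −0.63, −0.55 and −0.50, or 0.10 higher at 3 h, 0.18 higher at 6 h and 0.22 higher at 12 h. The channels show where the probes parted. In Cy5 alone both were below the untreated array at every time, A_23_P70398 by 0.24, 0.49 and 0.31 and A_24_P12401 by 0.10, 0.18 and 0.15. In Cy3 the first was higher, by 0.17, 0.20 and 0.29, while the second was lower, by 0.20, 0.35 and 0.37. The direction of VEGFA in the ratio therefore depended on the probe. Probes of a gene with opposite signs, both beyond the technical SD, were found in 9.31% of genes with 2 measured probes at 12 h.

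ADM encodes adrenomedullin, a peptide that widens blood vessels. Its probe A_23_P127948 was printed in 10 spots and had a median Cy5 signal of 3799.5 units in untreated cells, 4979.75 at 3 h, 3182.75 at 6 h and 3469.5 at 12 h. The log2 ratio was −1.81 in untreated cells, −1.35 at 3 h, −1.58 at 6 h and −1.31 at 12 h. The spots ran from −1.99 to −1.54 in untreated cells, from −1.44 to −1.22 at 3 h, from −1.66 to −1.51 at 6 h and from −1.39 to −1.16 at 12 h. The spots at 3 h and 12 h lay above every untreated spot, while those at 6 h overlapped with them. The change was 0.46 at 3 h, 0.23 at 6 h and 0.50 at 12 h, with an SD between spots of 0.12 at each time. In Cy5 alone it was 0.41, 0.09 and 0.32. On the 3 h array 1 of its spots lay in a damaged area and 2 were flagged as outliers and left out, as was 1 at 6 h.

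SLC2A1, PDK1 and CA9 serve glucose use and its acid product. SLC2A1, the glucose transporter GLUT1, had a Cy5 signal of 3663.5 units in untreated cells, 4971 at 3 h, 2654.5 at 6 h and 2812 at 12 h. In the same order the log2 ratio was −0.60, −0.40, −0.66 and −0.42. It was 0.20 higher at 3 h and 0.18 higher at 12 h, both less than 2 technical SDs, and 0.06 lower at 6 h, which was within 1. In Cy5 alone it was 0.30 higher at 3 h, but 0.25 lower at 6 h and 0.04 lower at 12 h. The 6 h and 12 h values of SLC2A1 thus gave no clear direction.

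PDK1 encodes a kinase that shuts off pyruvate dehydrogenase and so keeps pyruvate out of the mitochondria. Its Cy5 signal was 878 units in untreated cells, 1095 at 3 h, 849 at 6 h and 833.5 at 12 h. The log2 ratio was −1.20, −0.94, −0.84 and −0.86, and the treated arrays were 0.26, 0.36 and 0.33 higher. Unlike HIF1A by A_24_P56388, PDK1 was no higher at 12 h than at 6 h. In Cy5 alone PDK1 was 0.16, 0.11 and 0.19 higher, and with median centring 0.02 higher at 12 h, or 0.18 relative to all genes. CA9, a carbonic anhydrase at the cell surface and among the most widely used hypoxia markers, had a Cy5 signal of 303.5, 326.5, 263 and 255 units. The log2 ratios of −0.72, −0.60, −0.79 and −0.70 made CA9 0.11 higher at 3 h, 0.07 lower at 6 h and 0.02 higher at 12 h. The 6 h and 12 h values of CA9 were within the technical SD of the untreated array, on which its spot lay in a damaged area, so CA9 has no value once such areas are left out.

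BNIP3 and NDRG1 had ratios that were higher at each later time. BNIP3, a protein of the outer mitochondrial membrane that promotes removal of mitochondria, had a Cy5 signal of 4117.5 units in untreated cells, 4771 at 3 h, 3616 at 6 h and 3468 at 12 h. BNIP3 had a log2 ratio of −1.98, −1.84, −1.68 and −1.47, and was thus 0.14, 0.30 and 0.51 higher. Most of that difference at 6 and 12 h lay in Cy3, in which BNIP3 was 0.22 and 0.36 lower, and Cy5 alone was 0.12, 0.08 and 0.15 higher. NDRG1, a stress-responsive gene with a part in cell differentiation, had a Cy5 signal of 2045, 2622, 2320 and 2956 units. NDRG1's log2 ratio was −2.12 in untreated cells, −1.95 at 3 h, −1.77 at 6 h and −1.39 at 12 h. NDRG1 was 0.16 higher at 3 h, 0.35 higher at 6 h and 0.73 higher at 12 h, the largest change of the 9 targets at 12 h. In Cy5 alone NDRG1 was 0.22, 0.39 and 0.85 higher, and with the dye and background correction of Agilent's software 0.97 at 12 h, so it came closest to 2-fold of the targets.

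EGLN3 and ANKRD37 remain. EGLN3, an oxygen-sensing prolyl hydroxylase that is itself a HIF target and marks HIF for destruction, was barely above background in Cy5, with 50.5 units in untreated cells, 43 at 3 h, 46 at 6 h and 47 at 12 h over a background of 24.0. With log2 ratios of −1.48, −1.65, −1.30 and −1.30 it was 0.18 lower at 3 h and 0.18 higher at 6 h and 12 h. In Cy5 alone it was 0.21 lower at 3 h, 0.06 lower at 6 h and 0.0048 higher at 12 h. At this signal the sign of EGLN3 could not be read. ANKRD37, a small ankyrin repeat protein used as a hypoxia marker, had a Cy5 signal of 760, 1000.5, 642 and 1014 units. For ANKRD37 the log2 ratio was −0.92 in untreated cells, −0.54 at 3 h, −0.90 at 6 h and −0.24 at 12 h. ANKRD37 was 0.38 higher at 3 h and 0.68 higher at 12 h, and at 6 h, 0.02 higher, it did not differ from the untreated array beyond the technical SD. Cy5 alone gave the same course, with 0.23, −0.08 and 0.65.

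**Figure D2:**
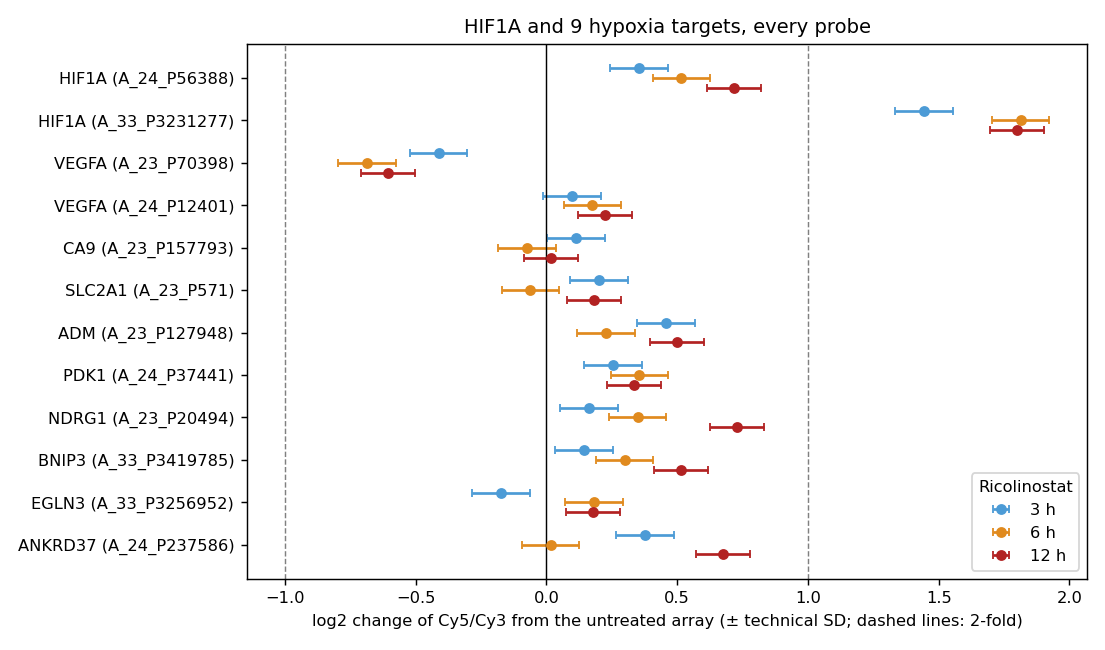
Change of the log2 ratio from the untreated array (horizontal axis) for each of the 12 probes (vertical axis) at 3, 6 and 12 h; bars are ± the technical SD of 0.10 to 0.11 and dashed lines mark 2-fold. The probe A_33_P3231277 of HIF1A alone lies beyond 2-fold, and the 2 VEGFA probes lie on opposite sides of 0.

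Set side by side, the targets did not share one course. The ratios of NDRG1 and BNIP3 climbed from 3 h to 12 h as that of HIF1A did by A_24_P56388. In Cy5 alone NDRG1 kept that course and BNIP3, with 0.12, 0.08 and 0.15, did not. With median centring none of the 3 climbed steadily, with 0.27, 0.14 and 0.36 for NDRG1 and 0.23, 0.05 and 0.09 for BNIP3. The median of all genes was itself 0.08, −0.08 and −0.16 there. Relative to it NDRG1 was 0.20, 0.23 and 0.52 higher, HIF1A 0.39, 0.40 and 0.52, and BNIP3 0.15, 0.14 and 0.25. In all 3 genes the step from 3 h to 6 h was within the technical SD. The genes could thus not be told apart by that step, and each was highest at 12 h. ADM, SLC2A1, CA9 and ANKRD37 were lower at 6 h than at both 3 h and 12 h, which HIF1A was not by either probe. With median centring HIF1A was lower at 6 h too, though not relative to the median of all genes. With one gene represented by its main probe, 0 of the 10 genes reached 2-fold in either direction at 3, 6 or 12 h. Of the 20765 genes measured at 3 h 1.69% were at least 2-fold higher and 0.366% at least 2-fold lower; at 6 h the shares were 2.81% and 0.939% of 20342, and at 12 h 2.34% and 1.12% of 20478. Among 10 genes a count of 0 does not stand apart from such shares. At 1.5-fold, HIF1A, NDRG1 and ANKRD37 were higher at 12 h, against 8.1% of all genes, and VEGFA was lower at 6 h and 12 h, against 4.42% and 5.13%. At 6 h no gene of the 10 was 1.5-fold higher, against 9.4% of all genes. Likewise none passed 1.5-fold at 3 h, where 6.87% of all genes were higher and 1.96% lower. These shares stand beside the counts as background only, since the genes were chosen with these changes known.

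The median change of the 9 targets was 0.16 at 3 h, 0.18 at 6 h and 0.33 at 12 h, where the median of all genes was 0.0075, 0.016 and 0.014. Above the untreated array by more than the technical SD were 7, 5 and 7 of the 9, and below it by more than that were 2, 1 and 1. Over all genes 33.4%, 36.5% and 36.6% were above by that much and 28.1%, 30.4% and 31.5% below. The counts of targets include EGLN3, below at 3 h and above at 6 h and 12 h, although its sign could not be read. They also include SLC2A1 among those above at 12 h, where Cy5 alone was 0.04 lower. CA9 is counted as above at 3 h with 0.11, barely past the technical SD. In Cy5 alone CA9 was at −0.00018 there, and its spot on the untreated array lay in a damaged area. By main probes the lowest target was VEGFA at every time; with VEGFA by A_24_P12401 it would be EGLN3 with −0.18 at 3 h and CA9 with −0.07 and 0.02 at 6 h and 12 h. The lowest place thus rests on 1 probe. The highest was ADM with 0.46 at 3 h, PDK1 with 0.36 at 6 h and NDRG1 with 0.73 at 12 h. Each time the next target lay within the technical SD of the highest: ANKRD37 with 0.38, NDRG1 with 0.35 and ANKRD37 with 0.68. In Cy5 alone NDRG1 was above PDK1 at 6 h, with 0.39 against 0.11. The median at 6 h was −0.06 in Cy5 alone and −0.0086 with median centring, where it was 0.08 above the median of all genes. At 12 h it was 0.15 in Cy5 alone and 0.02 with median centring, or 0.18 above the median of all genes in that setting.

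**Figure D3:**
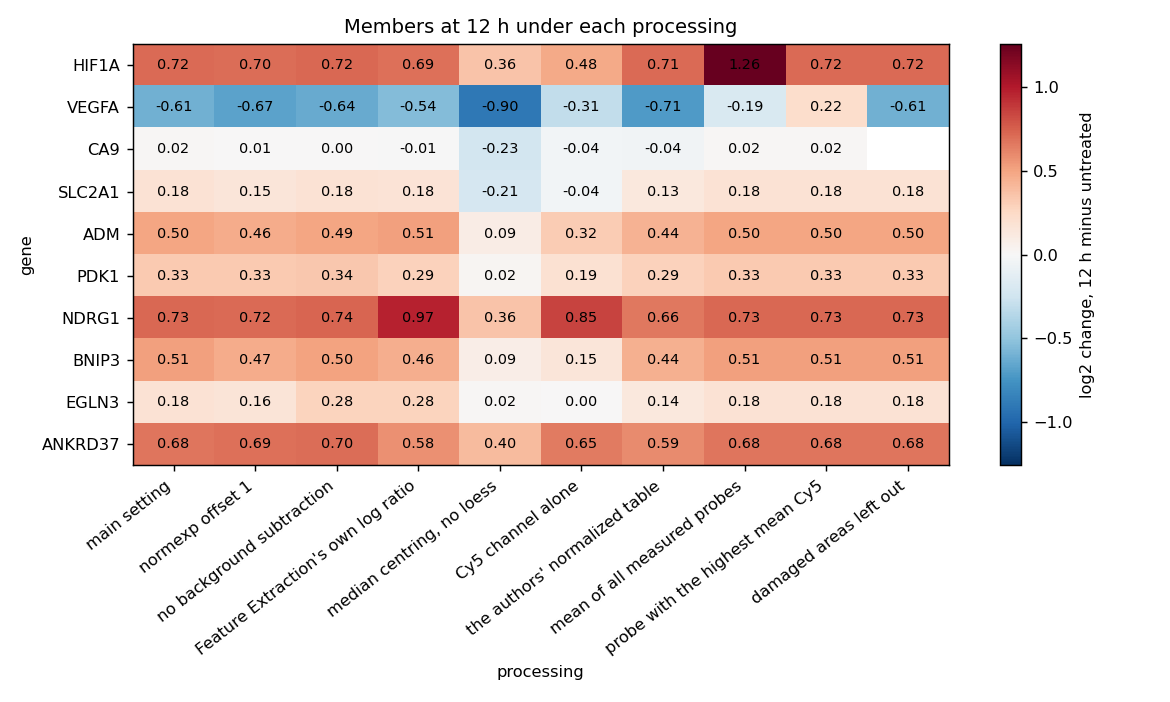
Log2 change at 12 h of the 10 genes (vertical axis) under each way of processing the arrays (horizontal axis), with the value printed in each cell and in colour from blue (lower) to red (higher); CA9 has no value where damaged areas are left out. HIF1A runs from 0.36 with median centring to 1.26 as the mean of its 2 probes, and VEGFA from −0.90 with median centring to 0.22 by its other probe.

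The proteins that make, modify or use HIF form a list of 17 genes, all of them measured. The list median was 0.17 at 3 h, 0.13 at 6 h and 0.18 at 12 h, and 12, 11 and 12 of the 17 were above the untreated array, against 51.4%, 52.8% and 52.5% of all genes. With median centring the 12 h median was −0.20, or −0.04 relative to all genes. Only CITED2 reached 2-fold, at 12 h, where 2.34% of all genes were at least 2-fold higher. CITED2 binds the coactivators EP300 and CREBBP in place of HIF1A and so limits HIF. Its log2 ratio was −2.04 in untreated cells, −1.45 at 3 h, −1.21 at 6 h and −0.90 at 12 h, a rise of 1.14 at 12 h after 0.59 and 0.83. Its other probe gave 0.29, 0.34 and 0.25, so the rise past 2-fold was that of 1 probe. The coactivators lay on the other side: CREBBP was 0.57, 0.47 and 0.74 lower, the lowest of the list at 12 h, and EP300 was 0.26, 0.53 and 0.51 lower.

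The partners and regulators of HIF1A were mostly above the untreated array. EPAS1, which encodes the α subunit HIF-2α, was 0.11 higher at 3 h, 0.31 at 6 h and 0.66 at 12 h. ARNT, the β subunit, was 0.50, 0.74 and 0.53 higher, with its spot in a damaged area and a Cy5 signal of 96 to 170.5 units. EGLN1, the main prolyl hydroxylase, was 0.45, 0.37 and 0.36 higher. HIF1AN, the asparagine hydroxylase that blocks coactivator binding, was 0.29, 0.35 and 0.34 higher. The Cy5 signal of HIF1AN was only 60.5 to 93 units, so its direction rests on a dim probe. VHL, the substrate receptor of the ubiquitin ligase, was 0.26 and 0.37 higher at 3 h and 6 h but 0.07 lower at 12 h, and its scaffold CUL2 was 0.51, 0.79 and 0.71 higher. Not all parts of the degradation machinery lay on that side. EGLN2, another prolyl hydroxylase, was 0.25, 0.19 and 0.03 lower. RBX1, the RING subunit of the ligase, was 0.17 higher at 3 h but 0.19 and 0.42 lower at 6 h and 12 h. Its Cy5 signal before normalization was 8778.5 units in untreated cells and 5366 at 3 h. The higher ratio of RBX1 at 3 h thus went with a lower sample signal in units.

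The 18 genes of glycolysis and glucose transport had a lower median at 3 h and 6 h. The median was −0.02 at 3 h over the 17 measured, 0.02 at 6 h and 0.18 at 12 h over all 18, and 7, 11 and 14 genes (41.2%, 61.1% and 77.8%) were above the untreated array, against the same shares of all genes as before. At 12 h 13 were above it by more than the technical SD and 2 below, against 36.6% and 31.5% of all genes. With median centring the 12 h median was −0.29, or −0.13 relative to all genes in that setting, so the direction of this list flipped with the normalization. ENO2, an enolase of neurons that is also a HIF target, was the only gene to reach 2-fold, at 12 h, against 2.34% of all genes. Its log2 ratio was −2.56, −2.19, −1.75 and −1.34 and its Cy5 signal 218.5, 274, 278 and 356.5 units, so ENO2 rose by 1.22 at 12 h after 0.36 and 0.80; in Cy5 alone the 12 h change was 0.85. ENO1, the common enolase, was the lowest of the list at 12 h and was 0.37, 0.35 and 0.26 lower.

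A further 39 targets with other roles had 36 measured genes at 3 h and 6 h and 35 at 12 h. The median was 0.06, 0.11 and 0.23, and 23, 23 and 25 (63.9%, 63.9% and 71.4%) were above the untreated array, against 51.4%, 52.8% and 52.5% of all genes. At least 2-fold higher were 2 genes at 3 h, 1 at 6 h and 3 at 12 h, against 1.69%, 2.81% and 2.34% of all genes. At least 2-fold lower were 0, against 0.366%, 0.939% and 1.12%. The 1 gene at 6 h and the 0 lower do not stand apart from such shares. INSIG2, which holds the sterol sensor SCAP in the endoplasmic reticulum and so restrains cholesterol synthesis, was past 2-fold at all 3 times. Its Cy5 signal was 215 units in untreated cells, 689 at 3 h, 585 at 6 h and 502 at 12 h. The log2 ratio was −1.56 in untreated cells, −0.13 at 3 h, 0.03 at 6 h and −0.09 at 12 h. INSIG2 rose by 1.43, 1.59 and 1.48, and its other probe gave 1.53, 1.44 and 1.42, so both probes and all 3 treated arrays stood apart from the untreated one.

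P4HA2 and EDN1 passed 2-fold at 12 h. P4HA2, a collagen prolyl hydroxylase subunit, was 0.33 and 0.51 higher at 3 h and 6 h and rose by 1.10 at 12 h, and its other probes gave 1.01 and 0.42 at 12 h. In Cy5 alone P4HA2 was 0.30 lower at 3 h and 0.22 and 0.75 higher at 6 h and 12 h, so its direction at 3 h turned. EDN1, the precursor of the vasoconstrictor endothelin-1, was 0.69 and 0.58 higher and then rose by 1.08, with 0.67 at 12 h by its other probe. ZNF395, a zinc finger protein, passed 2-fold at 3 h, with a ratio change of 1.03, but its Cy5 signal alone was 0.54 lower there, from 814 units in untreated cells to 569.5, so the higher ratio was not a higher sample signal. At 6 h and 12 h its ratio was 0.55 and 0.15 higher. The lowest gene at 12 h was GBE1, the glycogen branching enzyme, which was 0.13, 0.32 and 0.64 lower. With median centring the median over all genes was itself −0.16 at 12 h. Before that shift is taken off, the 12 h changes of CITED2, ENO2, P4HA2 and EDN1 were 0.87, 0.98, 0.72 and 0.91, short of 2-fold. That of INSIG2 was 1.28. In the same setting, and likewise with the shift left in, CREBBP, at −1.01, and GBE1 passed 2-fold lower.

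**Figure D4:**
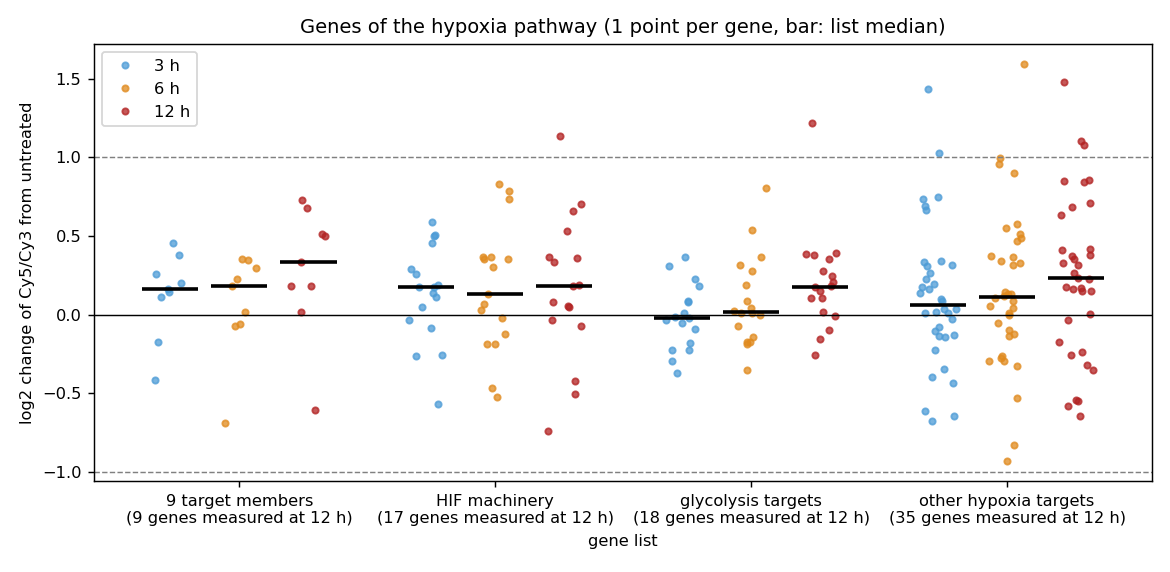
Log2 change from the untreated array (vertical axis) of each measured gene in 4 groups (horizontal axis: the 9 targets, 17 genes of the HIF machinery, 18 of glycolysis and the other hypoxia targets) at 3, 6 and 12 h; bars are medians and dashed lines mark 2-fold. The list medians lie between −0.02 and 0.33, and INSIG2 is the highest point of the last group at each time.

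The genes whose changes lay nearest to those of HIF1A by A_24_P56388 were found by the Euclidean distance over the 3 changes, among 18561 genes that were well above background throughout and whose spots lay outside damaged areas. The nearest 5 were BET1 (distance 0.031), PKIG (0.034), DLG5-AS1 (0.037), ENAH (0.039) and SLC1A1 (0.042). BET1 was 0.33, 0.53 and 0.71 higher at 3, 6 and 12 h. In all 281 genes lay within 0.2. None of the targets did: NDRG1 ranked 514th, BNIP3 1200th, PDK1 1667th and ANKRD37 2320th, followed by SLC2A1, EGLN3 and VEGFA at 6085th, 6532nd and 17865th, while CA9 and ADM were not ranked because of the damaged areas. By A_33_P3231277 3 genes lay within 0.2, ZNF204P, DACT1 and GLRX. With 4 arrays no correlation between genes was computed.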

How the data were processed

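Total RNA of SUM149 cells was labelled with Cy5 and a common reference with Cy3 on 4 two-colour Agilent arrays of 62976 spots, 2075 of them controls and 0 saturated in the channels used. For each array the authors deposited the intensity of every spot and of its local background (medians over pixels) as written by Agilent's Feature Extraction, and a log10 value of the Cy5 to Cy3 ratio that the program had corrected for background and dye. Normalized log2 ratios with the gene of each probe were deposited in 1 further table, whose normalization is not given in the sources used here. All 4 columns of sample values were used.

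Intensities were corrected by normexp with an offset of 50, controls and flagged outlier spots were left out, and arrays were normalized by loess and Aquantile in limma 3.58.1 (R 4.3.3). The offset pulls changes of dim probes towards 0. Spots of a probe were averaged, a gene was represented by its main probe, the one brightest in Cy3 on average, and counted as measured when at least 50% of the spots of that probe passed Agilent's well-above-background flag for Cy5 and Cy3 on both arrays. An area was called damaged where, in a window of 13 rows by 7 columns, 10% or more of the spots were flagged or over 2-fold off in Cy3. Later steps used Python 3.11.15 with numpy 2.4.6 and pandas 2.3.3. Each time point had 1 array, so time points were not tested against each other. Genes were counted at 2-fold, and the 4 arrays limit the precision. In simulated data, planted changes at 79 spots with a Cy5 signal of 300 or more over background were recovered at a median of 0.914 of their size for 12 h against untreated over 35130 spots. Over all planted spots, dim ones included, the median recovered share was 0.62 to 0.74 and 54% to 72% passed 2-fold. EGLN3 and, on 3 arrays, CA9 lay below that signal.

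The 10 genes and the lists were chosen with earlier results of these data known. Named by rule were the 10 genes, HDAC6, list genes at 2-fold or else highest and lowest at 12 h, 5 regulators of HIF (EPAS1, ARNT, VHL, EGLN1 and HIF1AN) and the 5 genes nearest to HIF1A; EP300, EGLN2, RBX1, CUL2 and the genes near A_33_P3231277 were named after their values were seen. Alternatives covered background correction, normalization, the normalized Cy5 value in place of the ratio, the authors' table, the probe of a gene, dim probes, the threshold and damaged areas. The other HIF1A probe and the other VEGFA probe alone were added after seeing the data. The mean signal over pixels, a further alternative, was not used here. The promoter of HIF1A is not reported here.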

Additional observations from a re-analysis of the deposited data

Results flagged for a closer look

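The Cy3 signal of HIF1A probe A_24_P56388 had 1 array far from the other 3. Cy3 carries the same reference on every array, and the untreated array was the highest, so that the gap to its nearest neighbour was 0.861 of the range over the 4 arrays, above Dixon's critical value for 4 samples. In log2 units the 3, 6 and 12 h arrays were 0.20, 0.22 and 0.24 lower than the untreated one. This gap enters the ratio of HIF1A at all 3 times, and Cy5 alone gave 0.15, 0.30 and 0.48. Of the 12 probes of HIF1A and its 9 targets, this was the 1 that passed the value, and chance alone gives about 1 in 20 such groups. The part of the reference in the change of HIF1A was not tested further.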

How the results depend on the processing

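Results were recomputed under 14 other settings. Of 237 values for HIF1A, the median of the targets, the counts at 2-fold and the 3 list medians, 205 stayed within the technical SD or, for counts, within 1.5 times, and 32 moved. Of 558 values for single targets, named list genes and counts over all genes, 386 stayed, 171 moved and 1 reversed. HIF1A was above the untreated array at each time in all 10 settings that gave it a value. With the probe brightest in Cy5, and without damaged areas, the probe and spots of HIF1A stayed the same, so its value could not change. With the mean of its 2 probes it was 0.90, 1.16 and 1.26 at 3, 6 and 12 h, and with A_33_P3231277 alone 1.44, 1.81 and 1.80; 1 gene of the 10 then passed 2-fold at 6 and 12 h with the former and at each time with the latter. At 1.5-fold 1 gene was lower at 6 h, and 3 were higher and 1 lower at 12 h. In Cy5 alone HIF1A was 0.15, 0.30 and 0.48, the median of the 9 targets −0.063 at 6 h and 0.15 at 12 h, and that of the HIF machinery 0.045 at 12 h. With median centring HIF1A was 0.32 at 6 h and 0.36 at 12 h, the targets −0.0086 and 0.023, the HIF machinery −0.0020 and −0.20, glycolysis −0.28 and −0.29, and the other hypoxia targets −0.041 at both, after 0.22 at 3 h; the median of all genes was −0.08 at 6 h and −0.16 at 12 h, and relative to it the targets were 0.08 and 0.18, the HIF machinery 0.08 and −0.04, glycolysis −0.19 and −0.13 and the other targets 0.04 and 0.12. The authors' table gave 0.054 for the targets at 6 h. ZNF395 at 3 h turned from 1.03 to −0.54 in Cy5 alone. The cause was not tested.

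Over all genes 479 were 2-fold higher and 229 lower at 12 h, against 263 and 704 with median centring, 918 and 518 with an offset of 1, 1031 and 706 with Agilent's own log ratio, 752 and 450 in the authors' table, 397 and 364 in Cy5 alone and 1658 and 1050 at 1.5-fold. At 3 h the 351 higher genes became 220 without damaged areas. No paired analysis was possible because 1 array stands for a time point, and no replicate could be left out. Dim probes such as EGLN3 limit what can be read, since near background the offset moves the size of a change: EGLN3 at 3 h was −0.18 with an offset of 50 and −0.49 with an offset of 1. The mean signal over pixels was not run.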

Other observations

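Other genes of the pathway were looked at after the values had been seen. BNIP3L, the relative of BNIP3 in mitochondrial removal, was 0.0072 and 0.14 higher at 3 h and 6 h by its main probe. At 12 h it was 0.58 lower by that probe. The Cy5 signal of the probe before normalization was 1116 units in untreated cells, then 3843, 2499 and 1288.5, so above untreated each time. The other probes of BNIP3L were 1.12, 1.42 and 1.71 higher and 0.51, 0.97 and 1.26 higher at 3, 6 and 12 h. KDM3A, a histone demethylase induced by HIF, was 0.73, 0.96 and 0.84 higher. MXI1, an antagonist of MYC, was 0.75, 0.99 and 0.86 higher by its main probe, while its other probes gave −0.22, −0.13 and −0.15 and 0.16, 0.19 and 0.13. KDM4B gave 0.66, 0.90 and 0.63 by its main probe and 0.20, 0.10 and 0.09 by the other. KDM3A had 1 probe. In KDM4B the size differed between probes, and in MXI1 also the sign. In BNIP3L the size differed at each time and the sign of the ratio at 12 h alone.

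DDIT4, an inhibitor of mTORC1 that hypoxia induces, was 0.68 and 0.93 lower at 3 h and 6 h and 0.33 higher at 12 h, with its spot in a damaged area. HIF1A-AS1, an antisense RNA at the HIF1A locus, was 0.11, 0.22 and 0.21 lower by the probe that was well above background on all 4 arrays, A_22_P00020043; in Cy5 alone that probe was 0.15 higher, 0.04 lower and 0.17 higher. MIR210HG, the host transcript of a hypoxia-induced microRNA, was 0.03, 0.17 and 0.31 higher, at a Cy5 signal of 49 to 62 units.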
